A study of Mus musculus with 6 samples.

Results

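The surface protein genes Epcam, Ncam1, Kit, Prom1, Cd24a, Cd44, Thy1 and Muc1, used to recognise liver progenitor cells, duct-like cells and tumours with a CLC component, were followed across 6 mouse hepatocellular carcinomas (HCCs). The members were every probe on the array, control spots aside, whose accession maps to one of those symbols, which gave 15 of 56605 probes and 8 of 22911 symbols. Each tumour was hybridised to 1 single-colour Agilent array, and the labels form 3 groups of 2. Albumin-derived tumours without CLC came from Alb-AID mice at 90 weeks of age, and the series describes them as derived from albumin-expressing cells. Epcam-derived tumours, without CLC in one group and with CLC in the other, came from Epcam-AID mice that received tamoxifen and a 0.1% DDC diet for 8 months, and the series describes them as derived from ductular progenitor cells. DDC is a porphyrinogenic compound that provokes a ductular reaction. The labels do not say how the AID alleles are driven. All mice were C57BL/6, and AID stands for the cytidine deaminase that mutates antibody genes in B cells. Origin, diet and tamoxifen differ together between the Albumin-derived and the Epcam-derived groups and cannot be told apart. The labels state an age for Alb-AID mice alone, and nothing in the labels says whether 2 tumours of a group came from different animals, so p-values measure the spread between these tumours only. The labels name CLC without expanding it. In liver pathology it usually stands for cholangiolocellular carcinoma, a tumour of small duct-like cords.

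In a healthy liver these genes sit mainly outside the hepatocyte. EpCAM is an adhesion protein of bile duct and ductular cells, prominin 1 (Prom1, CD133) marks apical membrane protrusions, CD24 and CD44 are heavily glycosylated adhesion proteins of ductular and tumour-initiating cells, and MUC1 lines the luminal side of ducts. NCAM1 and the receptor tyrosine kinase KIT are stains used for ductular reactions and CLC, but nerves and stellate cells also carry NCAM1, and mast cells and some endothelial cells carry KIT. THY1 (CD90) marks T cells, nerves and portal fibroblasts as well as some tumour cells. In RNA from whole tumour pieces, fewer cells of a type and less RNA per cell cannot be told apart.

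Signals below are log2 of the scanner's processed signal minus the 75th percentile of that array, so 0 is the signal of a fairly bright probe. Such a value orders tumours for 1 probe and does not compare one gene with another. A spot is called well above background by the scanner software. All 8 genes of the hepatocyte list, Alb, Hnf4a and Ttr among them, were well above background on every array, and Alb ran from 9.41 to 10.35. The 75th percentile of signal was 285 to 488 and 52.0% to 64.6% of probes were well above background, with 0 saturated spots. The first tumour with CLC had the lowest share of probes above background and the highest detection floor, at a signal of 18.7 against 9.20 to 13.1 elsewhere. Slide 1 held both Albumin-derived tumours and that tumour, and slide 2 held the other 3, so the 2 groups lacking CLC lay on different slides. Below, Epcam-derived replicates 1 and 2 are the tumours lacking CLC, and those with CLC are called the first and the second tumour with CLC. Of the 8 genes, 7 passed the filter, which asked for 2 arrays of some group to lie well above background, and Muc1 did not. Epcam passed through the group with CLC alone, so that its higher value there is partly built into the choice of tested genes. The number of arrays limits the precision.

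The pattern of the group as a whole was that EpCAM, CD44, CD24 and, on 1 of its probes, NCAM1 transcripts were highest or near highest in the tumours with CLC, while KIT, prominin 1 and THY1 transcripts followed individual tumours and not the labels. None of the 7 tested genes passed the adjusted threshold of 0.05 of limma's moderated test over all 27412 features in any of the 3 comparisons. The shares of all features past it were 0% for tumours with against without CLC (smallest adjusted p = 0.651), 0.244% for Epcam-derived against Albumin-derived tumours without CLC and 0.062% for tumours with CLC against Albumin-derived ones. At an unadjusted p under 0.05 the members numbered 2, 0 and 1, against 3.48%, 20% and 16% of all features. Cd24a and Cd44 had the largest differences relative to their error.

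**Figure D1:**
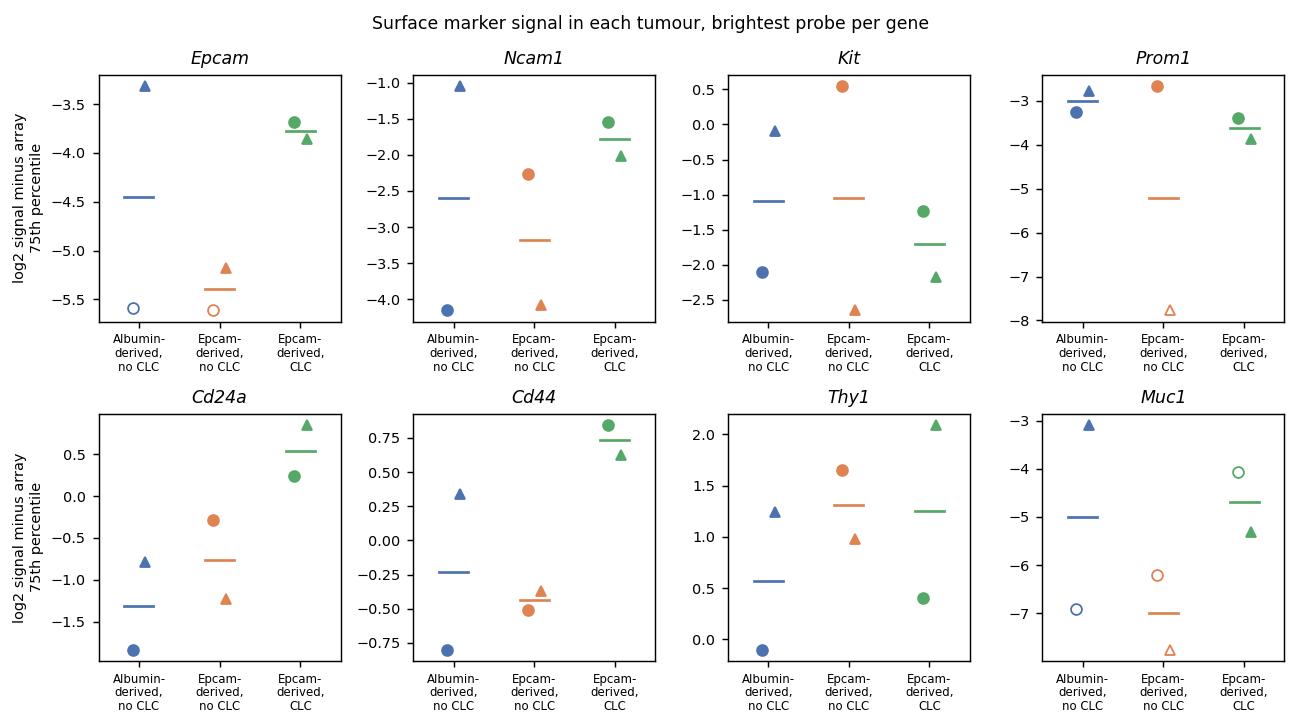
Log2 signal minus the array's 75th percentile (vertical axis) for the brightest probe of each of the 8 genes in the 3 groups (horizontal axis). Circles are replicate 1, triangles replicate 2, short lines group means, and open symbols values not well above background. Cd24a and Cd44 are the genes whose 2 tumours with CLC lie above all 4 others, and Kit, Prom1 and Muc1 spread widely between replicates.

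Epcam was dim throughout. Its log2 signal was -5.59 and -3.31 in the Albumin-derived tumours, -5.61 and -5.18 in Epcam-derived tumours lacking CLC and -3.69 and -3.86 in those with CLC, where the values of replicate 1 in each of the first 2 groups were not well above background. On the scanner's own scale these are processed signals of 5.92, 30.8, 8.66, 12.6, 24.5 and 33.7. The tumours with CLC and Albumin-derived replicate 2 thus stood above the other 3, and the 2 Epcam-derived groups did not overlap. With CLC against without, the difference was 1.62 ± 0.73 (log2, SE, n = 2), with a 95% interval from -0.19 to 3.44 and limma adjusted p = 0.999. With normexp background correction it was 0.54, and with values under each array's detection floor set to that floor it was 1.48. The Epcam-derived tumours lacking CLC had the lowest group mean of Epcam, at -5.40 against -4.45 in Albumin-derived tumours, a difference of -0.95 ± 0.73 (SE, n = 2; limma adjusted p = 0.500) that turned to 0.19 without Albumin-derived replicate 2. Against Albumin-derived tumours the tumours with CLC differed by 0.68 ± 0.73 (SE, n = 2; adjusted p = 0.692), by 0.26 with that floor and by -0.46 without Albumin-derived replicate 1.

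Cd44 encodes the hyaluronan receptor. On its brightest probe the signal was -0.80 and 0.34 in Albumin-derived tumours, -0.51 and -0.37 in Epcam-derived tumours lacking CLC and 0.84 and 0.62 with CLC. Both tumours with CLC were above all 4 others, and the replicates of each Epcam-derived group were within 0.22 of each other. The difference with against without CLC was 1.17 ± 0.42 (log2, SE, n = 2), a 2.25-fold higher signal with a 95% interval of 0.12 to 2.22, unadjusted p = 0.0342 and limma adjusted p = 0.999. Over 21 alternatives it stayed between 1.06 and 1.34, and it was 1.06 within slide 2. Against Albumin-derived tumours the difference was 0.96 ± 0.42 (SE, n = 2; limma adjusted p = 0.343) for tumours with CLC, 1.07 within slide 1, and -0.21 ± 0.42 (SE, n = 2; adjusted p = 0.811) for those without.

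The array holds 3 probes for Cd44. The second read -1.92, -0.60, -1.72, -1.62, 0.06 and -0.74 in the same order of tumours, so Albumin-derived replicate 2 lay above the second tumour with CLC there. The third was not well above background in either Albumin-derived tumour (-6.92 and -5.62). It read -5.13 and -5.44 in Epcam-derived tumours lacking CLC and -3.57 and -3.95 with CLC. On that probe the tumours with CLC were at least 1.85-fold higher than the Albumin-derived tumours, the bound being set by the dimmest signals that counted as above background there (limma over 34772 probes, adjusted p = 0.117). The differences with against without CLC were 1.33 ± 0.52 and 1.53 ± 0.47 (SE, n = 2) on these 2 probes (limma adjusted p = 1.000 for both), close to that of the brightest.

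The closest match among the members themselves was Epcam with Cd44, at a mean absolute distance of 0.34 between centred signals over the 6 arrays, and Cd44 was also the gene closest to Epcam of all 15867. For the 250 bases before their RefSeq starts (GRCm38.p6), which are available for 5 of the 8 genes, these 2 genes and Muc1 are shown because they are the member pair with the most similar pattern and the member that did not pass the filter. Capitals mark matches, on either strand, to the TATA box letters TATAAA, the box CCAAT, the GC box GGGCGG, the E-box CACGTG, the TCF/LEF core CTTTGA and the E-box CACCTG, which Snail and Zeb repressors can bind. In these windows no match overlapped another.
Epcam, chr17:87635729-87635978, plus strand: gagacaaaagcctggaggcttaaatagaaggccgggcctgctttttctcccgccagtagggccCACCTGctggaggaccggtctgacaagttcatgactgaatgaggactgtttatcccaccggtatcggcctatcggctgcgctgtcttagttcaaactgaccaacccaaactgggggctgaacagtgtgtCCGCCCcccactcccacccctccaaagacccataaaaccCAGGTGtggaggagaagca
Cd44, chr2:102901666-102901915, minus strand: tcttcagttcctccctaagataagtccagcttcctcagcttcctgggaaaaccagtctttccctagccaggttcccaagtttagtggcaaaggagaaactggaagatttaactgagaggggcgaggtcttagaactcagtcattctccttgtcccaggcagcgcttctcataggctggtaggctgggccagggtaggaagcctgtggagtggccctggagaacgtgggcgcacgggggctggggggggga
Muc1, chr3:89228806-89229055, plus strand: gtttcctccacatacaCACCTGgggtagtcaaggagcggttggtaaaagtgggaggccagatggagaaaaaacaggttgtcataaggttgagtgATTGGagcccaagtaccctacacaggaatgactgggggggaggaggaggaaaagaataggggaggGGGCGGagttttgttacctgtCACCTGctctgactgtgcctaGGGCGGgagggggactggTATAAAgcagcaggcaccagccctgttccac
The Epcam window held 2 CACCTG matches, at -187 and, on the other strand, at -19, and 1 GC box at -58. The Muc1 window held 2 CACCTG matches, 2 GC boxes, 1 CCAAT box and a TATAAA at -31. The Cd44 window held 0 matches to any of the 6. Over 32851 promoter windows of that length, CACCTG occurred in 17.2%, GGGCGG in 32.7%, CCAAT in 33.8%, TATAAA in 12.4%, CTTTGA in 13.8% and CACGTG in 6.02%. The array holds no measure of binding at these sequences, so a match is a description of letters alone.

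Cd24a encodes a small mucin-like anchor protein of ductular cells, B cells and red cell precursors. Its signal was -1.84 and -0.78 in Albumin-derived tumours, -0.29 and -1.23 in Epcam-derived tumours lacking CLC and 0.24 and 0.85 with CLC. Again both tumours with CLC were above all 4 others, and the 2 groups without CLC overlapped. The difference was 1.30 ± 0.52 (log2, SE, n = 2; 95% interval 0.02 to 2.59; unadjusted p = 0.0479; limma adjusted p = 0.999) against Epcam-derived tumours lacking CLC. It was 0.83 without Epcam-derived replicate 2 and 1.61 within slide 2. Against Albumin-derived tumours it was 1.85 ± 0.52 (SE, n = 2), a 3.61-fold higher signal with a 95% interval of 0.57 to 3.14, unadjusted p = 0.0129 and limma adjusted p = 0.199, and 1.55 within slide 1. Of all tested members and comparisons, this was the largest difference relative to its error. Epcam-derived tumours lacking CLC differed from Albumin-derived ones by 0.55 ± 0.52 (SE, n = 2; adjusted p = 0.578). The second Cd24a probe gave -1.69, -1.08, -0.48, -1.48, 0.06 and 0.63 over the 6 tumours, the same order of tumours as on the first.

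Ncam1 encodes the neural cell adhesion molecule. The brightest of its 4 probes read -4.16 and -1.04 in Albumin-derived tumours, -2.27 and -4.09 in Epcam-derived tumours lacking CLC and -1.55 and -2.02 with CLC. The highest and the lowest value of all were the 2 Albumin-derived tumours, 8.66-fold apart. The tumours with CLC lay above both Epcam-derived tumours without it, by 1.39 ± 1.11 (log2, SE, n = 2; limma adjusted p = 0.999), but by 2.30 without Epcam-derived replicate 1 and 0.49 without replicate 2. A second probe for the same accession read -4.03, -1.14, -2.55, -3.28, -3.14 and -1.996. There the first tumour with CLC lay below Epcam-derived replicate 1, the groups overlapped and the difference was 0.35 ± 0.97 (SE, n = 2). That tumour was above both Epcam-derived tumours lacking CLC on the first probe but not on the second, so the probes disagree about it. The other 2 Ncam1 probes, which cite another transcript accession, were not well above background on any array. Against Albumin-derived tumours Ncam1 differed by -0.58 ± 1.11 (SE, n = 2; limma adjusted p = 0.799) without CLC and by 0.82 ± 1.11 (adjusted p = 0.758) with CLC. Those differences were 0.98 without Albumin-derived replicate 2 and -0.74 without replicate 1, respectively.

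Kit, Prom1 and Thy1 went with single tumours. Kit, the receptor for stem cell factor, read -2.10 and -0.09 in Albumin-derived tumours, 0.55 and -2.65 in Epcam-derived tumours lacking CLC and -1.23 and -2.17 with CLC. Its highest and lowest tumours shared 1 label, Epcam-derived without CLC, and were 9.19-fold apart. The difference with against without CLC was -0.65 ± 1.18 (log2, SE, n = 2; limma adjusted p = 0.999) and turned to 0.95 without Epcam-derived replicate 1. Against Albumin-derived tumours it was 0.05 ± 1.18 without CLC (SE, n = 2; limma adjusted p = 0.989), -1.55 when Epcam-derived replicate 1 was left out. With CLC it was -0.61 ± 1.18 (SE, n = 2; limma adjusted p = 0.835), which became 0.39 without Albumin-derived replicate 2.

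Prom1 read -3.26 and -2.76 in Albumin-derived tumours, -2.66 and -7.77 in Epcam-derived tumours lacking CLC and -3.39 and -3.86 with CLC. A single tumour, Epcam-derived replicate 2, stood apart from the other 5 and was not well above background, at a processed signal of 2.09 against 29.6 to 67.4. The second Prom1 probe showed the same tumour lowest, at -7.74, with the others from -5.52 to -3.16. The differences were 1.59 ± 1.56 (log2, SE, n = 2) with against without CLC, -2.20 ± 1.56 for Epcam-derived against Albumin-derived tumours without CLC, and -0.61 ± 1.56 for tumours with CLC against Albumin-derived ones. Their limma adjusted p were 0.999, 0.463 and 0.878. The sizes of the first 2 rest on the value that was not well above background. With each array's lowest signal well above background as a floor, they were 0.52 and -1.13. Without the low tumour the first was -0.97 and the second 0.36. Among 15867 other genes with a symbol, those closest to Prom1 over the 6 arrays, by mean absolute distance of signals centred on each gene's mean, were Sgsm1 (0.47) and Gfra1 (0.49). Gfra1, a co-receptor for GDNF that can also bind NCAM, read -3.13 on that same tumour against -0.84 to 0.80 on the others.

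Thy1 read -0.10 and 1.24 in Albumin-derived tumours, 1.65 and 0.98 in Epcam-derived tumours lacking CLC and 0.41 and 2.09 with CLC. All 3 groups overlapped, and the tumours with CLC held both the highest and the second lowest value, 3.22-fold apart. Differences were -0.07 ± 0.71, 0.74 ± 0.71 and 0.68 ± 0.71 (log2, SE, n = 2) for with against without CLC, and for Epcam-derived without and with CLC against Albumin-derived (limma adjusted p = 1.000, 0.588 and 0.686). The 95% interval of the first ran from -1.84 to 1.71. Within slide 2 it was 0.78, and within slide 1 the CLC-bearing against Albumin-derived difference was -0.17.

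Muc1, the duct lining mucin, was well above background in 2 tumours only, Albumin-derived replicate 2 at -3.09 and the second tumour with CLC at -5.31. The other values were -6.90 (the first Albumin-derived tumour), -6.21 and -7.76 (the Epcam-derived pair lacking CLC) and -4.06 (the first tumour with CLC, whose detection floor was the highest). It was not tested. No group measured it on both arrays, so no fold is given.

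**Figure D2:**
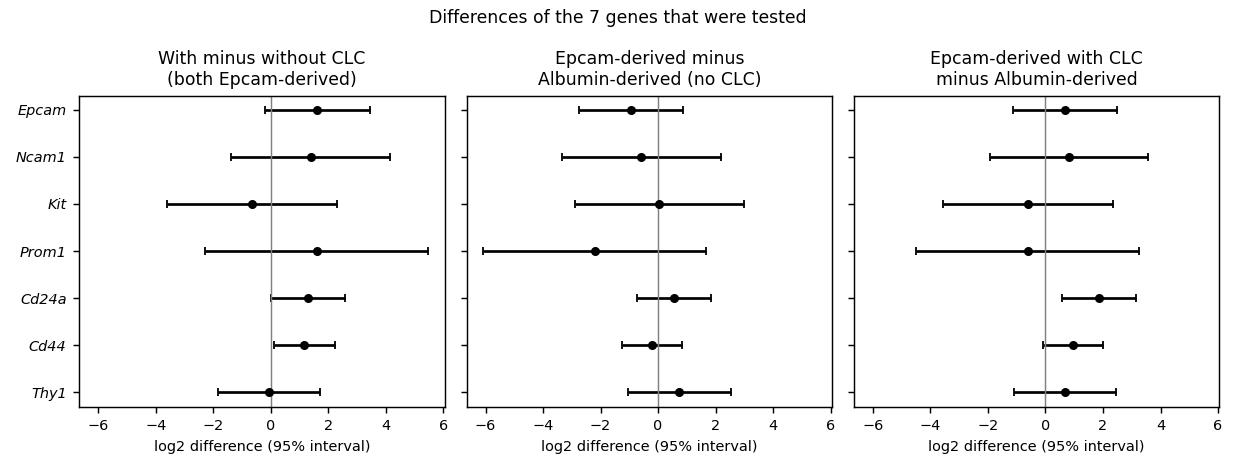
Log2 differences (horizontal axis) of the 7 tested genes in the 3 comparisons, with 95% intervals from limma (2 tumours in each group). Cd24a and Cd44 with against without CLC, and Cd24a with CLC against Albumin-derived tumours, are the 3 intervals that lie above 0, before any adjustment for the number of features.

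With CLC, 4 of the 7 (Epcam, Ncam1, Cd24a and Cd44) were higher without overlap of the 2 Epcam-derived groups, where 10.3% of features were, and 0 were lower, where 19.8% were (30.1% in either direction). The 7 genes had a median difference of 1.30, against -0.06 over all features, and 5 of them were above 0, as were 43.1% of features. In the other comparisons 3 and 5 of 7 were above 0, against 53.5% and 49.3% of features. Epcam entered through the group with CLC, Ncam1 did not separate the groups on its second probe, and the genes were picked as CLC markers with earlier results known, so these counts describe the 7 genes and test nothing. The 2 groups lacking CLC overlapped in all 7, although 55.2% of features did not overlap (30.4% higher and 24.8% lower in the Epcam-derived group). With normexp Epcam was lower without overlap there, and on the unscaled signal Cd24a and Thy1 were higher without overlap. With CLC against Albumin-derived, Cd24a and Cd44 were higher without overlap, where 23.8% of features were, and Prom1 was lower, where 27% were (50.8% in either direction). The Prom1 groups overlapped on the unscaled signal. The comparisons share tumours and are not independent of each other.

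The spread within groups was itself a feature of these genes. In the Albumin-derived pair, replicate 2 was above replicate 1 in 7 of the 7 tested genes and also for Muc1, while it was higher in 49.6% of all features. It was higher by more than 1 log2 unit in 6 of 7, against 6.97% of features, from 1.06 for Cd24a to 3.11 for Ncam1, with Prom1 at 0.50. Among Epcam-derived tumours lacking CLC, 3 of 7 (Ncam1, Kit and Prom1) were higher in replicate 1 by more than 1 log2 unit, against 9% of features. Among the tumours with CLC, Thy1 alone of the 7 tested probes differed by over 1, at 1.69, where 15.4% of features did. The median gap between replicates was 1.35, 0.94 and 0.48 for the 7 genes in the 3 groups, against 0.34, 0.38 and 0.39 for all features, which were not matched for level. Of the 3 pairs, the tumours with CLC had the smallest median gap on these tested probes. Other probes of the members did not all show this closeness. Between the tumours with CLC the gap was 2.36 on the second Prom1 probe, 1.14 on the second Ncam1 probe and 1.26 for the untested Muc1. It was 0.57 and 0.80 on the second Cd24a and Cd44 probes.

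**Figure D3:**
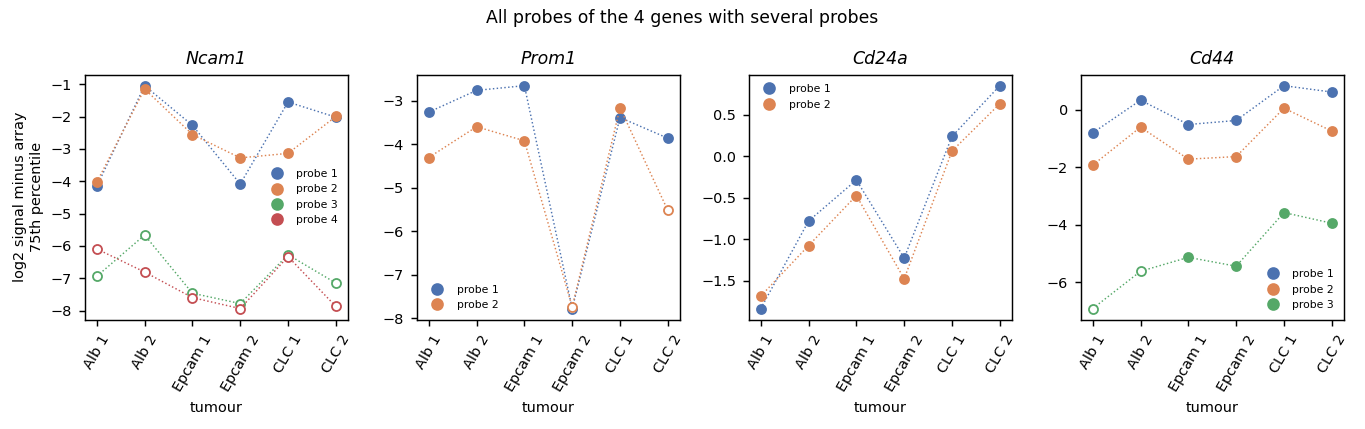
Log2 signal minus the array's 75th percentile (vertical axis) for every probe of Ncam1, Prom1, Cd24a and Cd44 in the 6 tumours (horizontal axis; Alb, Albumin-derived without CLC; Epcam, Epcam-derived without CLC; CLC, Epcam-derived with CLC). Probes are numbered by brightness, and open symbols are not well above background. The Cd24a probes rank the 6 tumours alike, while the first 2 Ncam1 probes place the first tumour with CLC differently among the 6.

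Other genes near in pattern were Adora3 for Epcam (0.34), Gas6 and Cd74 for Cd44 (0.15 for each), Rab27b and Zfyve28 for Cd24a (0.22 and 0.23), Saa1 and Saa2 for Ncam1 (0.33 and 0.35), Mcoln2 and Krtap11-1 for Kit (0.16 and 0.19) and Rnf122 and St8sia6 for Thy1 (0.14 for each).

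Ligands, binding partners and regulators of the members formed a list of 42 genes, 36 of them tested, and 0 passed limma's adjusted threshold in any comparison. With against without CLC, 20 were higher and 16 lower, with a median of 0.06 against -0.06 over all features. At an unadjusted p under 0.05 there were 2 of the 36, against 3.48% of all features, and 6 were higher and 6 lower without overlap, against 10.3% and 19.8%. Tspan8, a tetraspanin that associates with EpCAM, had the largest difference of the 3 named genes, 2.75 ± 1.09 (log2, SE, n = 2; limma adjusted p = 0.999). Its values of -0.70 and -3.96 without CLC and -0.31 and 1.15 with CLC show that the low tumour was again Epcam-derived replicate 2. Psen2, a subunit of the gamma-secretase that cuts EpCAM, was lower at -0.86 ± 0.29 (SE, n = 2) and the hyaluronidase Hyal1 higher at 0.71 ± 0.30. Spp1 and Kitl were singled out after their values were seen. Spp1, which encodes osteopontin, a ligand of CD44, read 1.99 and 5.20, 4.81 to 5.41 and 5.88 and 6.73 in the 3 groups, so that it was highest in the tumours with CLC, with a difference of 1.19 ± 1.04 (SE, n = 2; limma adjusted p = 0.999) from those without. Kitl, the ligand of KIT, was highest in the second tumour with CLC at -1.68 and lowest in Albumin-derived replicate 1 at -3.28. The hyaluronan synthases Has2 and Has3, and St8sia2, which adds polysialic acid to NCAM, were not well above background on any array.

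Against Albumin-derived tumours the partner list had 21 higher and 15 lower without CLC (median 0.27, 8 at unadjusted p under 0.05) and 23 higher and 13 lower with CLC (median 0.14, 12 at unadjusted p under 0.05). Over all features 20% and 16% were at an unadjusted p under 0.05. Prom2, the relative of Prom1, was at least 30.4-fold lower in Epcam-derived tumours lacking CLC and at least 19.4-fold lower in those with CLC, where it was not well above background (limma adjusted p = 0.0812 and 0.115). Prom2 passed the filter through the Albumin-derived group alone, so its higher value there is partly built in. It read 1.20 and -2.31 in the Albumin-derived tumours, whereas Prom1 in Epcam-derived replicate 1 was as high as in either of them. Selp, P-selectin, a receptor for CD24, differed by -2.11 ± 0.30 and -1.70 ± 0.30 (SE, n = 2), and Psen2 by 1.87 ± 0.29 without CLC (adjusted p = 0.0711, 0.113 and 0.0765). Ezr, the ezrin that ties CD44 to actin, read -1.50 and -1.37, -0.12 and 0.81, and 1.06 and 1.19 in the 3 groups, a difference of 2.56 ± 0.37 (SE, n = 2; limma adjusted p = 0.0892) with CLC against Albumin-derived.

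A further list of 37 surface markers of progenitor, duct and tumour-initiating cells, all tested, also had 0 genes past the adjusted threshold in each comparison. With against without CLC 24 were higher and 13 lower (median 0.20, 4 of 37 at unadjusted p under 0.05, against 3.48% of all features). Lgr5, a Wnt-amplifying receptor of stem cells, was at least 4.73-fold higher and Msln, the mesothelin of mesothelium and some duct cancers, at least 10.9-fold higher with CLC, both not well above background in the Epcam-derived tumours without it (limma adjusted p = 0.792 and 0.999). Lgr5 passed the filter through the group with CLC alone, so its higher value there is partly built in. In Albumin-derived replicate 1 Lgr5 read -3.94, near the first tumour with CLC at -3.64. Msln was above background in the Albumin-derived tumours, at -2.55 and -2.35, between the 2 tumours with CLC at -3.72 and -0.35. Lgr4, the relative of Lgr5, was lower, at -1.02 ± 0.31 (SE, n = 2; adjusted p = 0.999). Against Albumin-derived tumours the list had 20 higher and 17 lower without CLC (median 0.11) and 23 higher and 14 lower with CLC (median 0.36), with 12 of 37 at unadjusted p under 0.05 in each, against 20% and 16% of all features. The mucin Muc4 read -1.19 and -0.69 in Albumin-derived tumours and -5.10 and -7.96 in Epcam-derived tumours lacking CLC, where the second value was not well above background and no difference is given. It was not well above background in either tumour with CLC, at least 14.8-fold lower than in Albumin-derived tumours (limma adjusted p = 0.105). Muc4 also passed the filter through the Albumin-derived group alone. Alcam, an adhesion protein called CD166, differed by -1.08 ± 0.29 without CLC and -1.28 ± 0.29 with it (SE, n = 2; adjusted p = 0.150 and 0.143). Itga3, an integrin of epithelia, was higher without CLC at 1.82 ± 0.41 and Vcam1, a ligand for leukocyte integrins, with CLC at 1.89 ± 0.48 (SE, n = 2; adjusted p = 0.120 and 0.176).

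Markers of the cell types that carry these proteins moved with some of them. For duct epithelium 9 of 10 genes were tested, and their summed signal, in units of the array's 75th percentile, was 8.30 and 41.6 in Albumin-derived tumours, 46.9 and 32.0 in Epcam-derived tumours lacking CLC and 67.1 and 111 with CLC. With against without CLC 8 of the 9 were higher (median 0.85), against 43.1% of all features. None passed limma's adjusted threshold, and 3 were at an unadjusted p under 0.05, against 3.48% of all features. Most of the sum was Spp1. Without Spp1 the sums were 4.33 and 4.77, 4.26 and 4.02, and 8.20 and 5.42, still highest with CLC. Onecut1 then gave the largest part of the sum in every tumour. It read 1.61 and 1.54, 1.39 and 0.75, and 2.54 and 1.30. In the second tumour with CLC it thus lay below both Albumin-derived tumours and Epcam-derived replicate 1, so these sums do not show a rise shared by all duct genes. The duct keratin Krt19 read -4.94 and -3.52, -4.21 and -3.87, and -1.59 and -1.37, Krt7 was highest with CLC at -2.95 and -4.24, and Sox9, a ductular transcription factor, was not, at -1.24 and 0.22 against -0.45 and 0.50 without CLC. Krt19 was not well above background in Albumin-derived replicate 1, and Krt7 in neither Albumin-derived tumour. Cd24a and Cd44 were highest in the same 2 tumours as these keratins, Epcam was higher still in Albumin-derived replicate 2, and the part of duct cells in the values was not tested.

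The 4 pan-leukocyte genes, Ptprc (CD45), Cd52 and Coro1a among them, summed to 12.9 and 20.8, 17.2 and 23.7, and 24.5 and 38.0 in the 3 groups, so the sum was highest in the tumours with CLC. Their group mean was above that of Epcam-derived tumours lacking CLC for 4 of 4 genes (median 0.50), against 43.1% of all features, with 0 past the threshold. Laptm5, also in this list, was higher in Albumin-derived replicate 2 (1.27) than in the second tumour with CLC (1.08). B cell genes (4 of 5 tested) summed to 1.04 and 0.43, 1.05 and 1.30, and 1.71 and 1.71. By group mean 4 of 4 were higher with than without CLC, against 43.1% of all features, and 2 without overlap, against 10.3%. Pax5 was lowest of all in the second tumour with CLC, at -3.05. Ms4a1 in the first, at -3.88, lay below Epcam-derived replicate 2 at -3.52. The defining B cell marker Cd79a was well above background on 1 array alone, Epcam-derived replicate 2, and was not tested. Neutrophil genes (3 of 6 tested, Ngp not well above background anywhere) summed to 2.27 and 2.15, 2.58 and 1.66, and 4.29 and 2.59. The neutrophil sum of the second tumour with CLC barely exceeded that of Epcam-derived replicate 1. Erythroid genes, a further source of Cd24a, were not highest in both tumours with CLC and summed to 209 and 138, 725 and 75.8, and 602 and 80.2 (4 of 5 tested). The part of leukocytes in the Cd24a and Cd44 values was not tested.

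For Thy1, the T cell list (8 of 8 tested) summed to 37.6 and 21.5, 47.1 and 30.4, and 16.7 and 29.0, and most of that sum was Cd4. Without Cd4, left out after its values were seen, the sums were 4.75 and 4.37, 5.55 and 4.56, and 4.83 and 7.42. Without it the second tumour with CLC was highest and Epcam-derived replicate 1 next, as for Thy1, while Albumin-derived replicate 1, lowest in Thy1, was not lowest. Stellate and portal fibroblast genes (9 of 9) summed to 28.1 and 40.2, 90.4 and 33.6, and 73.1 and 47.8, and nerve and Schwann genes (4 of 6, Nefl not well above background anywhere) to 1.15 and 2.09, 5.57 and 1.57, and 1.61 and 1.58. Albumin-derived replicate 1, lowest in Thy1 and Ncam1, was lowest in both lists. For Kit, mast cell genes (3 of 8 tested, Ms4a2 not well above background anywhere) summed to 0.61 and 0.50, 0.45 and 0.99, and 0.76 and 0.48, and the tumour with the highest Kit, Epcam-derived replicate 1, had the lowest sum. One of the 3, the IgE receptor subunit Fcer1a, was highest in that tumour, at -3.50 against -5.23 or lower elsewhere. The defining mast cell proteases Cpa3 and Mcpt4 were well above background on 1 array alone, the second tumour with CLC, and were not tested. Sinusoidal endothelial genes (7 of 7) summed to 18.2 and 4.42, 8.55 and 14.6, and 24.3 and 8.43, a sum that did not follow Kit. Single genes of that list differed. Stab2 and Clec4g were highest in the first tumour with CLC, at 3.46 and 3.13. Pecam1 was highest in Epcam-derived replicate 1 (-0.74) and next in Albumin-derived replicate 2 (-1.48), as Kit was. Hepatocyte genes (8 of 8) summed to 3479 and 2945, 2086 and 1728, and 2200 and 1601, and mesothelial genes (2 of 4 tested) to 0.04 and 0.08, 0.47 and 0.13, and 0.14 and 0.32. The parts of these cell types in the Kit, Ncam1 and Thy1 values were not tested.

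**Figure D4:**
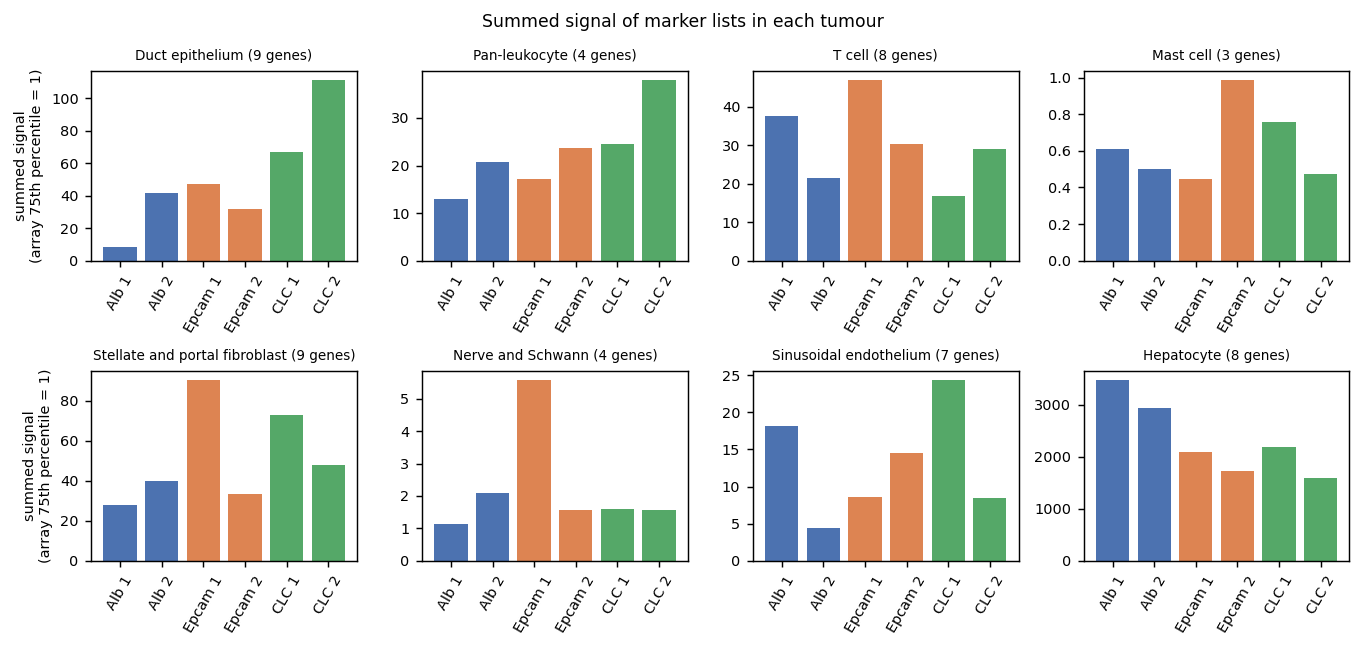
Summed signal of 8 marker lists (vertical axis, in units of the array's 75th percentile) in the 6 tumours (horizontal axis; Alb, Albumin-derived without CLC; Epcam, Epcam-derived without CLC; CLC, Epcam-derived with CLC). The duct and pan-leukocyte sums are highest in the tumours with CLC, and the T cell, fibroblast and nerve sums are highest in Epcam-derived replicate 1.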

How the data were processed

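RNA of 6 tumours was measured on single-colour Agilent arrays, labelled from 0.1 µg of RNA per the labels. The deposited scanner files hold intensity values that Feature Extraction 11.5.1.1 made, per the file headers: the processed signal, already background-subtracted. The series value table, deposited by the authors as intensity, equals that signal times 1 factor per array. Here log2 of the processed signal minus each array's 75th percentile was used, spots of a probe were averaged, and accessions were named through RefSeq. Of 56605 probes, 34772 passed the filter, which asked for 2 arrays of some group to lie well above background (0.5 of a probe's spots or more). Controls, and spots the scanner marked as outliers, did not enter. The brightest kept probe stood for a symbol, which gave 27412 features, 15868 of them with a symbol. All 6 arrays were fitted with limma 3.58.1 in R 4.3.3 (lmFit, eBayes; residual df 3), with Benjamini-Hochberg adjustment over all features and a threshold of 0.05. An exact permutation test of 2 against 2 cannot go below p = 0.333. The fit was checked on simulated data. Bounds and floors for probes below background used the dimmest signal above background per array.

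The members and gene lists were chosen with earlier results of these data known. Named were all members, the 3 genes with the smallest p per comparison in the partner and surface marker lists, the first 3 genes of each cell type list and the 2 genes nearest to each member. The files hold no mean signal, so the normexp alternative used the median signal (offset 50). Other alternatives were quantile normalization, another percentile, other filters and probe rules, slide or replicate number as a block, the authors' value table, an intensity trend, and leaving out each array. The normexp setting as run, testing named features alone, keeping outlier spots and the floor on values below background were chosen after seeing the data.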

Additional observations from a re-analysis of the deposited data

How the results depend on the processing

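No member passed limma's adjusted threshold under any alternative that kept 2 tumours in both compared groups. Of 427 member values 403 kept their direction, but that count does not measure robustness. Many settings left a probe's difference as it was by design. They were the authors' value table, an intensity trend, the replicate block, named features, the 2 groups alone and leaving out an array outside the comparison. Slide settings and leaving out 1 array also repeated one another, as for Thy1 below. The number of arrays and the dim signals of Epcam, Muc1 and Prom1 limit precision. The 24 reversals were as follows, and their cause was not tested. With against without CLC, Thy1 was 0.78 with slide as a block, within slide 2 and without the first tumour with CLC. Without Epcam-derived replicate 1 of the group lacking CLC, Kit was 0.95 and Thy1 0.27, and without replicate 2 Prom1 was -0.97. For Epcam-derived against Albumin-derived tumours without CLC, Cd44 was 0.12 as the mean of its probes, and the slide block gave Cd24a -0.060, Cd44 0.014 and Thy1 -0.94. Without Albumin-derived replicate 1, Kit was -0.96, and without replicate 2 Epcam was 0.19, Ncam1 0.98 and Cd44 0.36. Without Epcam-derived replicate 1, Kit was -1.55, and without replicate 2 Ncam1 was 0.33 and Prom1 0.36. With CLC against Albumin-derived, Epcam was -0.065 with normexp, and Thy1 -0.17 with the slide block, within slide 1 and without the second tumour with CLC. Without Albumin-derived replicate 1, Epcam was -0.46 and Ncam1 -0.74, and without replicate 2 Kit was 0.39.

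With 1 array left out, values ran with against without CLC from -2.25 to 0.95 for Kit, from -0.97 to 4.15 for Prom1 and from -0.91 to 0.78 for Thy1. Between the groups lacking CLC they ran from -2.08 to 0.19 for Epcam, -2.14 to 0.98 for Ncam1, -1.55 to 1.65 for Kit, -4.76 to 0.36 for Prom1 and -0.78 to 0.36 for Cd44. With CLC against Albumin-derived they ran from -0.46 to 1.81 for Epcam, -0.74 to 2.37 for Ncam1, -1.61 to 0.39 for Kit and -0.17 to 1.52 for Thy1.

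Features past the threshold numbered 0 with against without CLC and 0 to 268 when 1 array was left out, the 268 without the second tumour with CLC. For Epcam-derived against Albumin-derived tumours without CLC, 67 became 135 with normexp, 102 with quantile normalization, 1 without a filter, 32 with a filter on all arrays, 110 as probe means, 34 with the 2 groups alone, 40 with named features, 0 with the slide block and 0 to 16 with 1 array left out. With CLC against Albumin-derived, 17 became 66 with normexp and with quantile normalization, 1 without a filter, 253 within slide 1, 39 with the 2 groups alone and with an intensity trend, 0 with the slide block and 0 to 334 with 1 array left out, the 334 without the second tumour with CLC. Normexp moved the median of all features to -0.16 and -0.12 in the last 2 comparisons.

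Replicate numbers are shared between groups, but same-numbered arrays did not deviate together (correlations -0.16, 0.06 and 0.23), so the numbers do not pair the tumours. With replicate number as a block, the counts were 0, 11 and 0.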
